A study of Mus musculus with 30 samples.

Results

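The 44 genes described here repair DNA or relieve its torsion. They were taken by symbol from a table of 56686 genes, as a chosen set of excision, mismatch, alkylation and break repair genes with the damage signalling kinases and adaptors, *Top1* and *Top2b*. All 44 symbols were in the table. Total RNA was sequenced from lumbar dorsal root ganglia, L3 to L5 of both sides, of male C57BL/6J mice. The ganglia hold the cell bodies of sensory neurons with satellite glia, Schwann cells, vessels and immune cells. On day 2 the groups were CVAD, cyclophosphamide, dexamethasone and saline. On day 8 they were CVAD, cyclophosphamide, vincristine, doxorubicin, dexamethasone and saline. Each of the 10 groups has 3 libraries, 30 in all. CVAD is a combination regimen of the 4 single drugs. The labels give neither doses nor ages, nor whether a library is 1 mouse or a pool, so p-values measure only the spread between libraries. Values are TPM (transcripts per 1000000, a unit scaled by gene length within each library), and the number of reads behind them is unknown.

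Neurons do not divide, and they repair their DNA outside replication. Nucleotide excision repair removes bulky lesions, base excision repair replaces single damaged bases, and non-homologous end joining rejoins broken ends without a sister template. Cyclophosphamide is an alkylating agent, doxorubicin traps type II topoisomerases on DNA, vincristine binds tubulin, and dexamethasone is a glucocorticoid. MGMT and the ALKBH enzymes undo some alkyl lesions directly, and TOP2B is the type II topoisomerase of non-dividing cells.

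Of the 44 genes, 42 were above 0 in every library and entered the tests. *Alkbh3* and *Rad50* were listed at 0 in all 30 libraries. A listed 0 is read no further, because 3972 of 21915 protein-coding genes stood at 0 in every library, among them *H2ax*, the histone variant gene used in damage signalling.

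The samples carried the markers of the labelled tissue. The 10 sensory neuron genes summed to 1973 to 2786 TPM and the 6 genes of Schwann cells and satellite glia to 1097 to 1573 TPM. Skeletal muscle genes (4) ranged from 3.25 to 539 TPM and spinal cord genes (4) from 1.22 to 66.9 TPM, with *Aqp4* at 0 throughout. Across genes, any 2 libraries correlated at r = 0.956 to 0.973, and pairs within a group were no closer (median 0.966) than pairs from different groups (median 0.966). Protein-coding genes held 60.5 to 73.8% of the TPM. The part of muscle in the results was not tested.

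In nucleotide excision repair, *Ddb1*, a subunit gene of a damage sensor complex, stood highest of all 42 genes, at 140.3 ± 9.50 TPM (SD over 30 libraries). Its partner *Ddb2* was at 12.97 ± 2.15 TPM, and *Ddb1* exceeded it in 30 of 30 libraries with a median ratio of 11.2. A similar gap separated the gene of the XPC chaperone *Rad23b*, at 95.3 ± 7.38 TPM, from *Xpc* itself, the gene of the lesion recognition protein, at 15.3 ± 1.70 TPM, a median ratio of 6.07. The genes of the 2 helicases of the transcription factor TFIIH kept one order. *Ercc3* (43.8 ± 2.999 TPM) was above *Ercc2* (32.2 ± 4.01 TPM) in 30 of 30 libraries. The nuclease pair *Ercc1* and *Ercc4*, which cut on the 5′ side of a lesion, stood at 42.01 ± 6.31 and 28.9 ± 2.47 TPM. The genes of transcription-coupled repair, *Ercc6* (CSB) and *Ercc8* (CSA), were at 22.9 ± 3.002 and 13.6 ± 1.30 TPM. The damage-verifying *Xpa* averaged 26.8 ± 5.14 TPM, and the nuclease gene *Ercc5* averaged 28.6 ± 3.21 TPM.

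In base excision and single-strand break repair, the sensor gene *Parp1* led with 78.0 ± 5.51 TPM. *Polb*, the gap-filling polymerase, was at 42.02 ± 2.78 TPM, the scaffold *Xrcc1* at 37.9 ± 4.90 TPM and its ligase partner *Lig3* at 28.1 ± 2.53 TPM. *Xrcc1* exceeded *Lig3* in 30 of 30 libraries, with a median ratio of 1.33. *Lig1*, the ligase of DNA replication that also acts in repair, averaged 20.8 ± 2.89 TPM. The glycosylase genes, whose enzymes remove the damaged base, were lower. *Ogg1*, for oxidised guanine, was at 19.9 ± 2.82 TPM, and *Neil1* at 12.1 ± 2.19 TPM. *Mutyh*, for adenine opposite oxidised guanine, was at 5.44 ± 1.46 TPM, and *Ung*, for uracil, at 3.45 ± 0.777 TPM. *Apex1*, the nuclease of abasic sites, averaged 14.4 ± 3.04 TPM.

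The direct reversal genes were among the lowest. *Alkbh2*, a demethylase of DNA bases, ranged from 3.65 to 10.1 TPM. *Mgmt*, whose protein takes the alkyl group from guanine onto itself, ranged from 2.20 to 5.004 TPM and was the lowest of the 42 on average, at 3.26 ± 0.640 TPM. The mismatch repair genes *Msh6* and *Pms2* averaged 19.1 ± 1.78 and 15.5 ± 2.24 TPM.

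Among the damage signalling genes, the adaptor *Trp53bp1* led with 83.2 ± 5.56 TPM. The kinase gene *Atr* (37.0 ± 2.95 TPM) exceeded *Atm* (24.1 ± 1.24 TPM) in 30 of 30 libraries, with a median ratio of 1.51. *Rnf8*, a ubiquitin ligase, *Nbn*, of the break sensor complex, and *Mdc1*, a scaffold on marked chromatin, averaged 34.4 ± 3.73, 24.4 ± 2.30 and 17.8 ± 1.67 TPM. The checkpoint kinase gene *Chek2* was at 3.94 ± 1.0015 TPM. In end joining, the Ku subunit gene *Xrcc5* (34.5 ± 2.45 TPM) exceeded its partner *Xrcc6* (21.6 ± 2.48 TPM) in 30 of 30 libraries. The kinase gene *Prkdc* was at 24.1 ± 1.23 TPM. *Xrcc4* and *Lig4*, which form the ligase complex, were close, at 11.3 ± 1.79 and 10.7 ± 0.991 TPM, with *Xrcc4* above *Lig4* in 18 of 30 libraries. *Top1* (66.2 ± 3.61 TPM) exceeded *Top2b* (43.6 ± 3.07 TPM) in 30 of 30 libraries. *Tdp1* and *Tdp2*, which remove trapped topoisomerase proteins from DNA ends, averaged 29.6 ± 3.41 and 33.6 ± 3.64 TPM.

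**Figure D1:**
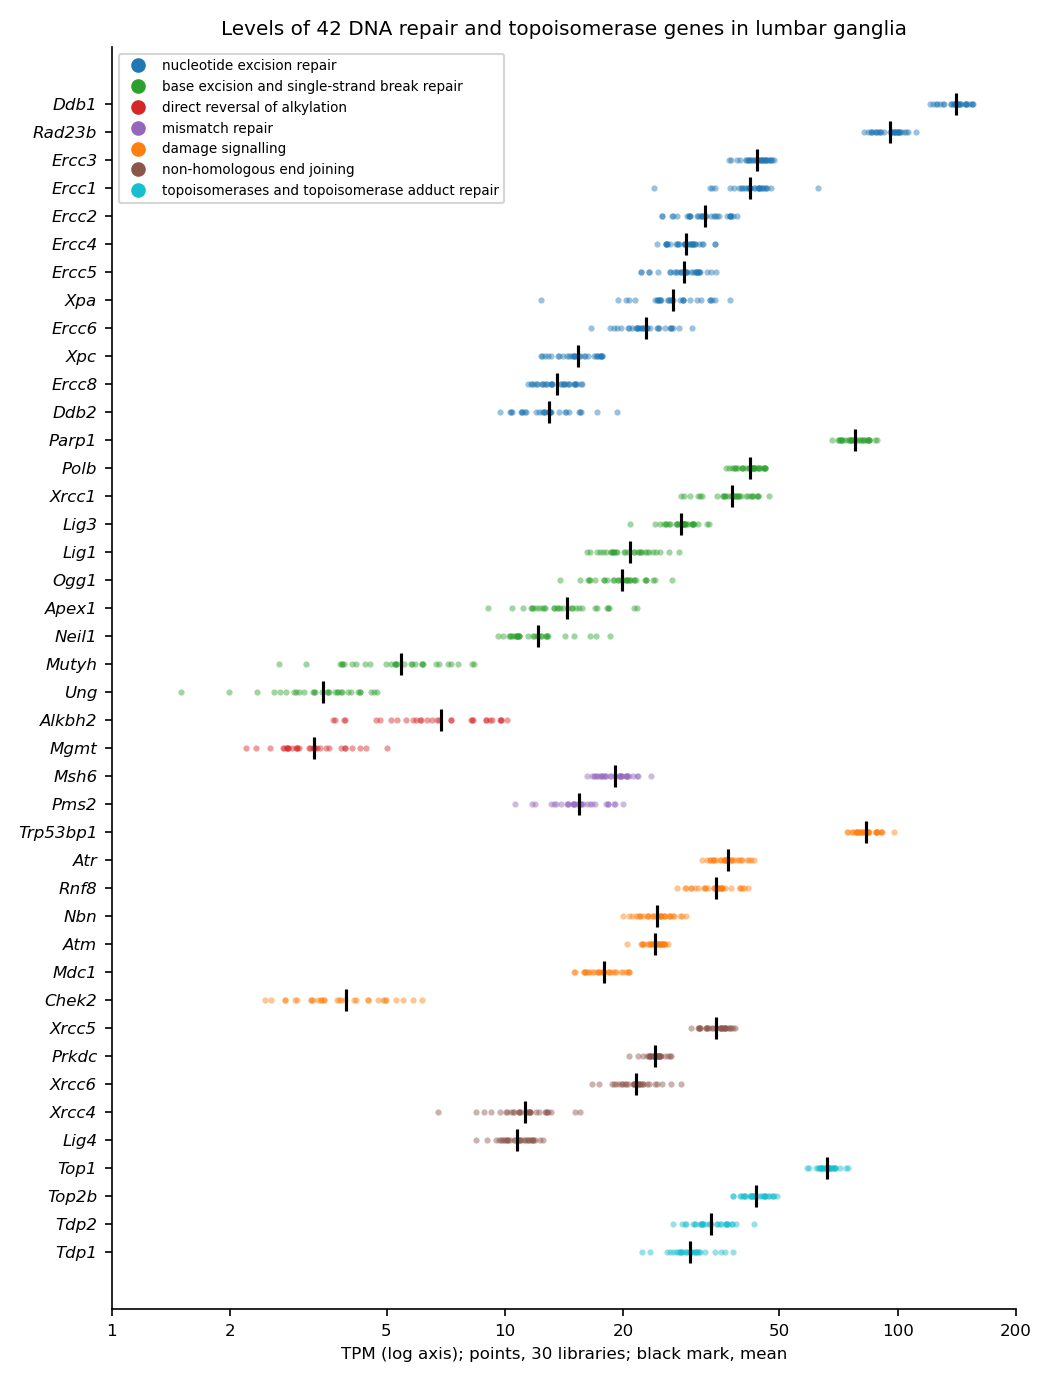
TPM on a log axis of the 42 genes above 0, grouped by role in order of mean. Each point is 1 of 30 libraries and the black mark is the mean. *Ddb1* has the highest mean, 140.3 TPM, and *Mgmt* the lowest, 3.26 TPM.

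The order of neighbours was mostly not separated. Of 41 pairs of neighbours in the order of means, 3 kept their order in 30 of 30 libraries. These were *Ddb1* above *Rad23b*, *Top1* above *Ercc3*, and *Lig4* above *Alkbh2*. Over all 30 libraries 19 genes had a coefficient of variation under 10%, the lowest being *Prkdc* at 5.08%. In 5 genes it was over 20%: *Alkbh2* (29.4%), *Mutyh* (26.8%), *Chek2* (25.4%), *Ung* (22.6%) and *Apex1* (21.1%). The highest library was less than 2 times the lowest in 33 of 42 genes. The median SD within groups on the log2(TPM + 1) scale was 0.15 for the 42 genes, against 0.16 for all tested protein-coding genes.

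The 42 genes summed to 1181 to 1403 TPM in a library, a coefficient of variation of 4.97%. The lowest sum was in doxorubicin day 8 replicate 3, where protein-coding genes held 61.0% of the TPM, and the highest in vincristine day 8 replicate 3, where they held 73.8%. Within their groups, doxorubicin day 8 replicate 1 had the highest of the 3 values in 32 of 42 genes, and saline day 8 replicate 2 the lowest in 32 of 42. TPM divides a fixed total among all RNAs, so such shifts touch many genes of a library together. Their part in the comparisons was not tested beyond the second scaling given below.

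The question for each drug group was whether these genes differed from saline of the same day. None of the 42 genes passed the threshold, an adjusted p under 0.05, in any of the 8 comparisons (limma on log2(TPM + 1), adjusted over all 25434 tested genes). The background was also low. Of all tested genes, 0.0432% were called in CVAD on day 2, 0.0118% in cyclophosphamide on day 2 and 0.00393% in dexamethasone on day 2. On day 8 it was 0% in CVAD, 0.00786% in cyclophosphamide, 0% in vincristine, 0% in doxorubicin and 0% in dexamethasone. The F test of any drug against saline called 0 of 42 genes on day 2, with 0.0118% of all genes called, and 0 of 42 on day 8, with 0%.

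At an unadjusted p under 0.05 the genes also did not stand above the background. On day 2, 3 of 42 genes passed it in CVAD, with 8.19% of all genes. In cyclophosphamide and dexamethasone on day 2 it was 1 of 42 each, with 7.51% and 5.37% of all genes. On day 8 it was 1 of 42 in each of the 5 drug groups. The share of all genes was 5.98% in CVAD, 5.76% in cyclophosphamide, 3.44% in vincristine, 3.35% in doxorubicin and 3.26% in dexamethasone. The F test gave 1 of 42 on day 2, *Lig1*, with 5.58% of all genes, and 0 of 42 on day 8, with 4.24%. Groups without overlap were also found across all genes. Depending on the comparison, they made up from 5.99% of all genes (doxorubicin against saline, day 8) to 13.5% (CVAD against saline, day 2). Of the 42 genes, 1 was without overlap in the former and 7 in the latter.

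The estimates were small. Of 336 log2 fold changes, 280 were within 0.2 of 0, and the extremes were −0.64 and 0.54. The median half-width of the 95% confidence interval was 0.26. In 33 to 37 of 42 genes, depending on the comparison, the interval lay wholly within a 1.5-fold change in either direction. For the remaining genes, led by the low *Alkbh2*, *Mutyh*, *Chek2* and *Ung*, a change of that size was not excluded by the interval.

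The CVAD group of day 2 had 33 genes with positive and 9 with negative estimates, and a median log2 fold change of 0.10, against 0.07 over all genes. In cyclophosphamide on day 2 it was 32 and 10 (0.07, against 0.06), and in dexamethasone 28 and 14 (0.05, against 0.06). On day 8 the positive estimates numbered 27 in CVAD, 15 in cyclophosphamide, 25 in vincristine, 17 in doxorubicin and 21 in dexamethasone. Of all genes, 65.9% had positive estimates in CVAD, 64.7% in cyclophosphamide and 65.3% in dexamethasone on day 2. On day 8 the share was 54.2% in CVAD, 37.9% in cyclophosphamide, 54.7% in vincristine, 43.9% in doxorubicin and 43.0% in dexamethasone. Median-ratio scaling aligns the libraries on the typical gene. With it the positive estimates of the 42 genes became 25 in CVAD, 20 in cyclophosphamide and 21 in dexamethasone on day 2. On day 8 they became 25 in CVAD, 23 in cyclophosphamide, 21 in vincristine, 20 in doxorubicin and 25 in dexamethasone. All groups of a day share 1 set of 3 saline libraries. The counts of positive estimates also moved when 1 library was left out. On day 8 CVAD had 14 in place of 27 without saline day 8 replicate 2. Doxorubicin had 31 in place of 17 without doxorubicin day 8 replicate 3, and dexamethasone 13 in place of 21 without dexamethasone day 8 replicate 3.

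By role, the 4 topoisomerase and adduct repair genes had positive estimates of 0.10 to 0.17 in CVAD on day 2, and the 5 end joining genes of 0.03 to 0.17. The same 5 end joining genes were all positive in cyclophosphamide and in dexamethasone on day 2, against the same saline libraries, and of the topoisomerase group 3 of 4 were positive in cyclophosphamide and 4 of 4 in dexamethasone. With median-ratio scaling the positive end joining genes became 4 of 5 in CVAD, 2 of 5 in cyclophosphamide and 3 of 5 in dexamethasone, and those of the topoisomerase group 4 of 4 in CVAD, 2 of 4 in cyclophosphamide and 3 of 4 in dexamethasone. The 12 nucleotide excision repair genes ran from −0.11 to 0.33 in CVAD on day 2. In CVAD on day 8 the topoisomerase group ran from −0.01 to 0.08 and the end joining group from −0.08 to 0.19. In doxorubicin on day 8 the topoisomerase group ran from −0.07 to 0.15.

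**Figure D2:**
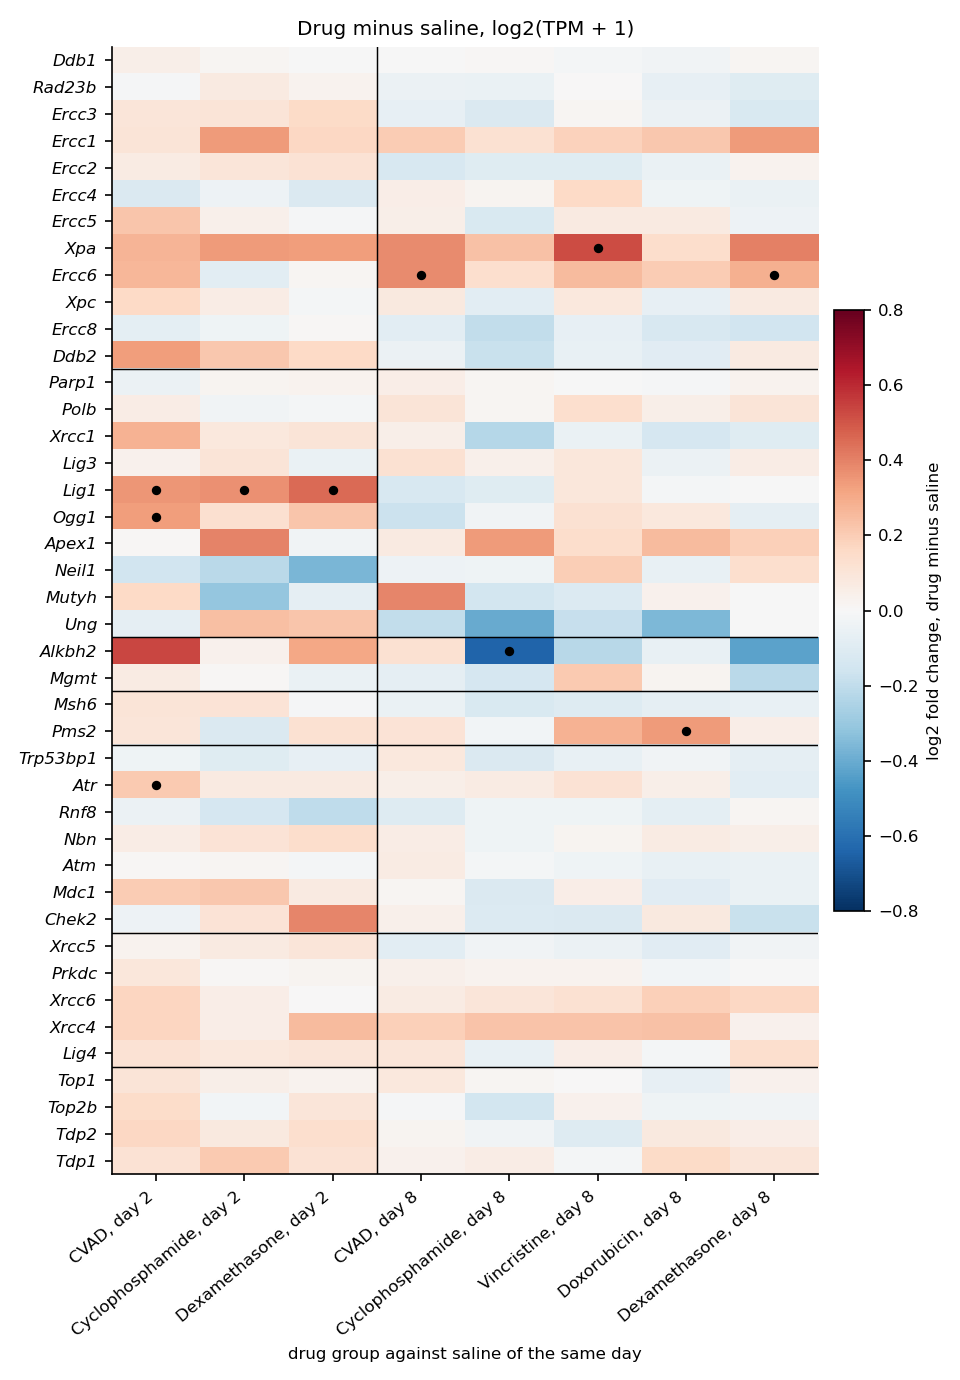
Log2 fold changes, drug minus saline of the same day, of the 42 genes (rows, grouped by role) in 8 drug groups (columns). Black dots mark the 10 of 336 estimates with an unadjusted p under 0.05. None passed after adjustment.

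*Lig1* had the smallest p on day 2. Its TPM was 20.1, 27.7 and 21.3 in CVAD, 21.9, 24.2 and 23.01 in cyclophosphamide, 26.2, 24.8 and 22.8 in dexamethasone, and 19.1, 16.2 and 17.7 in saline. All 9 drug libraries were above the 3 saline libraries, which the drug groups share. The log2 fold changes were 0.35 ± 0.12 (SE) in CVAD, 0.36 ± 0.12 in cyclophosphamide and 0.45 ± 0.12 in dexamethasone. The adjusted p-values in limma were 0.401, 0.512 and 0.744, and that of the F test was 0.635. With median-ratio scaling the estimates were 0.28, 0.29 and 0.39. Without CVAD day 2 replicate 2, the highest library, the CVAD estimate was 0.22.

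On day 8 *Lig1* was at 18.9, 18.7 and 17.5 TPM in CVAD, 16.5, 18.9 and 21.3 in cyclophosphamide, and 18.9, 18.1 and 23.8 in dexamethasone. Saline of day 8 had 23.2, 17.1 and 20.6 TPM. These drug groups all overlapped saline. The day 8 response minus the day 2 response was −0.48 ± 0.18 for CVAD, −0.46 ± 0.18 for cyclophosphamide and −0.46 ± 0.18 for dexamethasone. These differences share both saline groups, and their adjusted p-values were 0.354, 0.406 and 0.932. *Lig1* (chr7:13011239-13045350, plus strand, in the table's coordinates) overlaps *Zswim9* on the other strand, which averaged 24.3 TPM. The libraries keep strand, but whether the counting used it is not given in the sources used here. In all, 15 of the 44 genes overlap a protein-coding gene of the other strand, among them *Xpa* (with *Ncbp1*), *Ogg1* (with *Camk1*), *Alkbh2* (with *Usp30*) and *Top2b* (with *Rarb*), and values of such genes are uncertain to that extent.

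Markers of dividing cells, granulocyte precursors and spinal cord are given beside *Lig1*. The 12 dividing-cell genes, *Mki67* and *Top2a* among them, summed on day 2 to 41.0, 76.8 and 64.6 TPM in CVAD, 39.4, 62.8 and 60.9 TPM in cyclophosphamide, 69.7, 67.2 and 25.2 TPM in dexamethasone, and 29.7, 27.7 and 69.4 TPM in saline. These groups overlapped. Within CVAD, cyclophosphamide and dexamethasone the libraries were in the same order as for *Lig1*, and within saline they were not. The dexamethasone library at 25.2 TPM had *Lig1* at 22.8 TPM, the lowest of its group in both. The saline library at 69.4 TPM, the highest of its group, had *Lig1* at 17.7 TPM. On day 8 they summed to 53.2, 49.8 and 29.01 TPM in CVAD, 37.7, 50.2 and 53.7 TPM in cyclophosphamide, 86.8, 70.5 and 91.6 TPM in dexamethasone, and 122.4, 105.2 and 58.5 TPM in saline. The CVAD and cyclophosphamide sums lay below all saline sums, with 0 of 12 genes positive in either. *Lig1* of these groups overlapped saline. In limma 0 of the 12 genes were called in any of the 18 comparisons, with 8 of 12 at an unadjusted p under 0.05 in CVAD on day 8. The 7 granulocyte precursor genes summed to 89.4, 86.0 and 61.3 TPM in CVAD on day 8, against 203.6, 271.9 and 345.2 TPM in saline. All 7 were lower there, 0 of them called and 7 at an unadjusted p under 0.05 in limma. The other drug groups of day 8 also had all 7 lower, against the same saline libraries. There 6 were at an unadjusted p under 0.05 in cyclophosphamide, 6 in vincristine, 4 in doxorubicin and 1 in dexamethasone, with 0 called. In saline itself all 7 were higher on day 8 than on day 2, with 7 at an unadjusted p under 0.05 and 0 called. In the difference of the CVAD responses between days, all 7 had negative estimates, with 7 at an unadjusted p under 0.05. Of these, 3 were called in limma, with 0.0826% of all genes called. The 4 spinal cord genes summed on day 2 to 43.3, 13.03 and 20.6 TPM in CVAD, 2.64, 2.87 and 11.2 TPM in cyclophosphamide, 14.03, 1.60 and 13.8 TPM in dexamethasone, and 8.21, 28.98 and 66.9 TPM in saline. The sums rest mainly on *Gfap*. Over all 30 libraries it averaged 11.8 TPM, against 2.40 TPM for *Mog* (0 in 11 libraries) and 1.14 TPM for *Slc6a5* (0 in 8 libraries). These 3 were tested and 0 were called. Of them, 2 had an unadjusted p under 0.05 in cyclophosphamide and 1 in dexamethasone. The median log2 fold change of these 3 was −0.29 in CVAD, −1.80 in cyclophosphamide and −1.53 in dexamethasone. In whole ganglia, fewer cells of a type and less RNA per cell cannot be told apart. The relation of *Lig1* to the dividing-cell genes is given further on, and the part of the spinal cord and granulocyte markers was not tested.

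The other members at an unadjusted p under 0.05 in CVAD on day 2 were *Atr* and *Ogg1*. *Atr*, the kinase gene of replication stress, was at 41.8, 41.3 and 35.3 TPM in CVAD and 33.2, 34.1 and 34.4 TPM in saline. The groups did not overlap, as was so for 13.5% of all genes, and the estimate was 0.21 ± 0.09 (adjusted p = 0.524 in limma). *Ogg1* was at 20.5, 26.7 and 21.4 TPM in CVAD and 13.8, 19.4 and 20.9 TPM in saline. These overlapped, with the estimate at 0.33 ± 0.16 (adjusted p = 0.592) and at 0.16 without saline day 2 replicate 1, the lowest library.

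*Ercc6*, which encodes the CSB translocase that attends stalled RNA polymerase, had the smallest p among the members in CVAD on day 8. It was at 26.5, 26.4 and 24.7 TPM in CVAD and 23.03, 16.5 and 19.8 TPM in saline. The groups did not overlap. The log2 fold change was 0.38 ± 0.13 (adjusted p = 0.558 in limma), and it was 0.26 without saline day 8 replicate 2. In dexamethasone on day 8 *Ercc6* was at 25.6, 20.7 and 26.5 TPM against the same saline libraries, overlapping them (0.29 ± 0.13, adjusted p = 1), and the estimate was 0.17 without that saline library.

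The same saline library was low in *Xpa* and *Pms2*. *Xpa* was at 21.4, 33.3 and 37.5 TPM in vincristine on day 8 and at 24.9, 12.4 and 27.96 TPM in saline. The groups overlapped. The estimate of 0.52 ± 0.22 (adjusted p = 1 in limma) was 0.18 without saline day 8 replicate 2. *Pms2* was at 16.6, 18.98 and 18.4 TPM in doxorubicin on day 8 and 15.5, 11.7 and 15.03 TPM in saline, without overlap (0.34 ± 0.16, adjusted p = 1). Without that library it was 0.22. *Pms2* shares its strand and part of its locus with *Rsph10b*.

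The genes that answer alkylation directly were followed in the cyclophosphamide and CVAD groups. *Alkbh2* was at 3.65, 6.55 and 3.92 TPM in cyclophosphamide on day 8 and 9.77, 5.61 and 8.21 TPM in saline. One cyclophosphamide library lay above the lowest saline library. The log2 fold change was −0.64 ± 0.28 (adjusted p = 0.823 in limma), the lowest of the 336. *Alkbh2* also had the lowest estimate of the 42 genes in dexamethasone (−0.43) and vincristine (−0.22) on day 8, against the same saline libraries. It was at 6.82, 3.71 and 6.35 TPM in dexamethasone and 3.91, 9.18 and 7.31 TPM in vincristine. In doxorubicin on day 8 it was at 8.95, 5.33 and 8.25 TPM. These groups all overlapped saline. In CVAD on day 8 *Alkbh2* was at 6.08, 10.1 and 9.79 TPM, with an estimate of 0.12 ± 0.28 (adjusted p = 1). On day 2 it was at 9.70, 7.32 and 8.96 TPM in CVAD and 6.72, 6.11 and 4.70 TPM in cyclophosphamide, against 5.14, 5.93 and 5.84 TPM in saline. CVAD lay above saline in every library there (0.54 ± 0.28, adjusted p = 0.654), while cyclophosphamide overlapped it (0.03 ± 0.28, adjusted p = 0.997).

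*Mgmt* stayed within its spread. It was at 3.26, 3.91 and 2.96 TPM in CVAD and 2.81, 3.29 and 3.52 TPM in cyclophosphamide on day 2, against 3.39, 3.32 and 2.80 TPM in saline. On day 8 it was at 2.20, 3.18 and 4.28 TPM in CVAD and 2.75, 3.20 and 2.94 TPM in cyclophosphamide, against 3.84, 2.33 and 4.08 TPM in saline. All these groups overlapped. The 4 estimates ran from −0.13 ± 0.20 to 0.07 ± 0.20, with adjusted p-values of 0.984 to 1 in limma.

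*Top2b*, which encodes a doxorubicin target, was at 46.1, 44.3 and 40.8 TPM in doxorubicin on day 8 and 48.5, 40.3 and 45.9 TPM in saline. The groups overlapped throughout. The log2 fold change was −0.03, with a 95% confidence interval of −0.20 to 0.13 (adjusted p = 1 in limma). In CVAD on day 8 *Top2b* was at 44.96, 45.8 and 42.4 TPM (log2 fold change −0.01, interval −0.18 to 0.16).

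**Figure D3:**
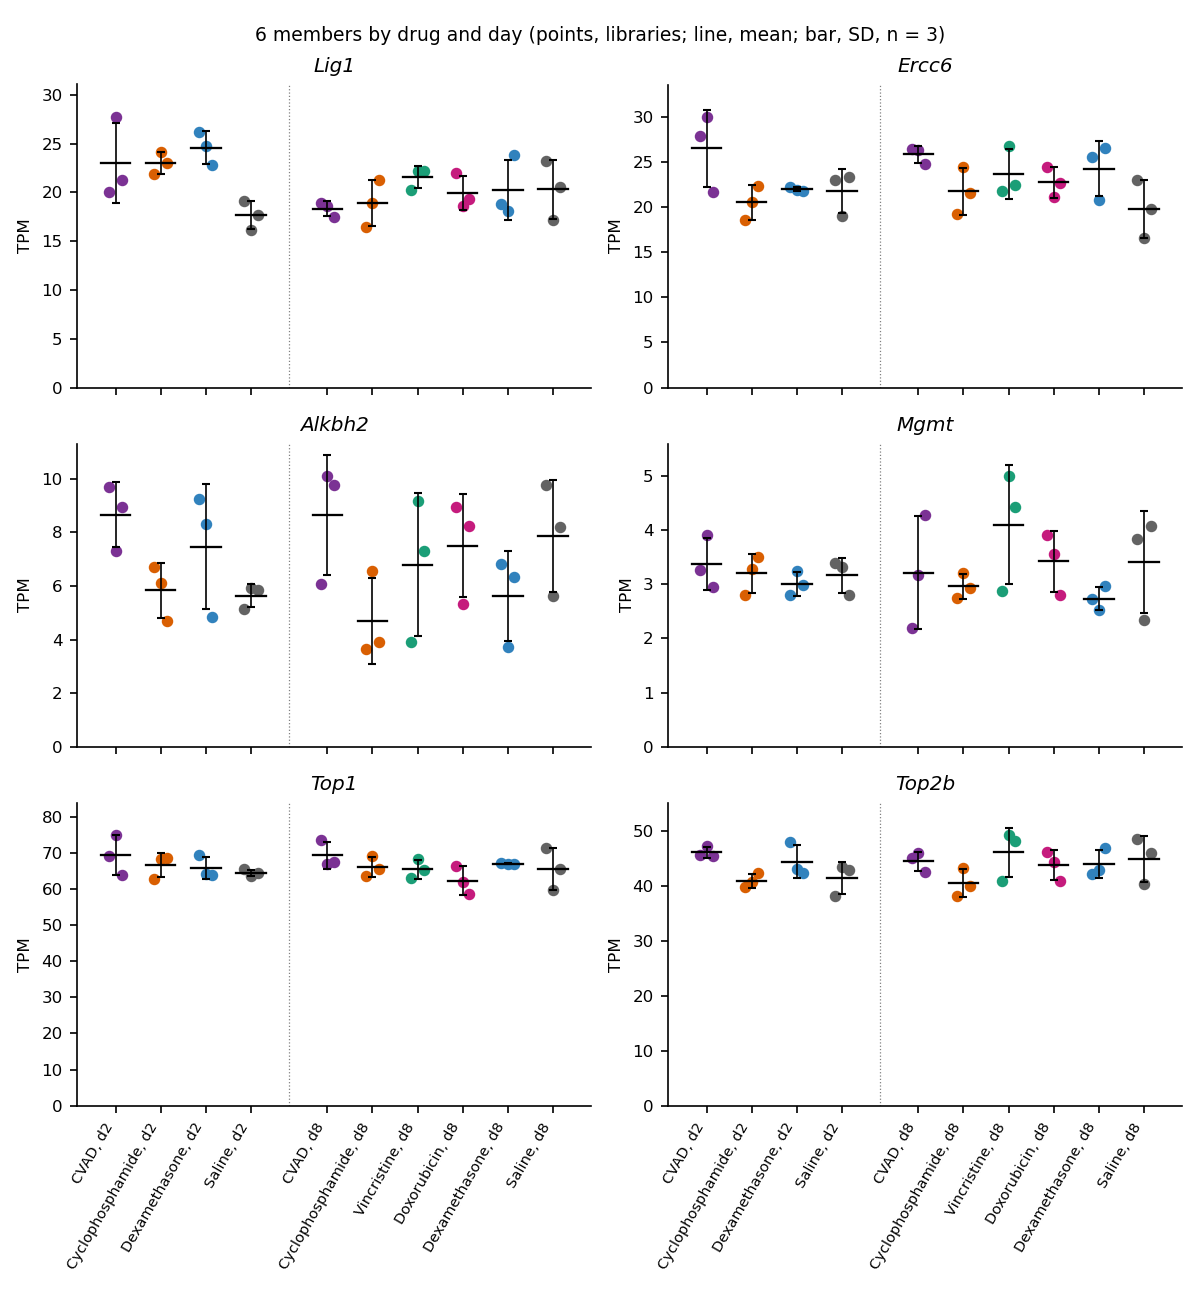
TPM of 6 genes in each library (points) by drug and day, with the group mean (line) and SD (bar, n = 3). *Lig1* of saline on day 2 lies between 16.2 and 19.1 TPM, below the drug groups of that day, while *Top2b* and *Mgmt* overlap between drug and saline groups on day 8.

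CVAD was also set against its single drugs, and no member was called in these 6 comparisons. Of all genes, 0.00393% were called against cyclophosphamide and 0% against dexamethasone on day 2. On day 8 it was 0% against cyclophosphamide, 0% against vincristine, 0% against doxorubicin and 0% against dexamethasone. *Alkbh2* differed most from cyclophosphamide on day 8, at 6.08, 10.1 and 9.79 TPM in CVAD and 3.65, 6.55 and 3.92 TPM in cyclophosphamide. These overlapped (0.77 ± 0.28, adjusted p = 0.908 in limma). *Trp53bp1* was at 91.2, 90.6 and 88.6 TPM in CVAD and 79.4, 77.1 and 78.6 TPM in cyclophosphamide on day 8, without overlap (0.20 ± 0.08, adjusted p = 0.908). Against dexamethasone, at 78.9, 81.4 and 82.4 TPM, it was also apart (0.15 ± 0.08, adjusted p = 1). The 3 CVAD libraries were close to each other in both comparisons, which share them.

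*Ercc6* was at 27.8, 29.99 and 21.7 TPM in CVAD on day 2 and 18.6, 20.6 and 22.4 TPM in cyclophosphamide (0.35 ± 0.13, adjusted p = 1 in limma). *Top2b* was at 45.6, 47.1 and 45.4 TPM in CVAD and 39.7, 40.6 and 42.3 TPM in cyclophosphamide of day 2, without overlap (0.17 ± 0.08, adjusted p = 1). Against doxorubicin on day 8, *Top1* was at 73.7, 66.8 and 67.4 TPM in CVAD and 66.4, 61.9 and 58.7 TPM in doxorubicin (0.15 ± 0.07, adjusted p = 1), again without overlap. *Mutyh* was at 7.31, 6.68 and 6.19 TPM in CVAD and 5.12, 4.53 and 3.80 TPM in vincristine on day 8 (0.50 ± 0.27, adjusted p = 1). *Ogg1* had estimates of −0.29 ± 0.16 against vincristine and −0.25 ± 0.16 against doxorubicin, overlapping in both. Against dexamethasone, *Ercc6* and *Ercc5* on day 2 (0.25 ± 0.13 and 0.23 ± 0.13) and *Alkbh2* on day 8 (0.55 ± 0.28) overlapped as well. These were 0.15 for *Ercc6* without CVAD day 2 replicate 2, 0.13 for *Ercc5* without dexamethasone day 2 replicate 2, and 0.32 for *Alkbh2* without dexamethasone day 8 replicate 2.

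In saline itself, day 8 against day 2 gave 0 of 42 members called, with 0.00393% of all genes. *Xrcc5* was at 38.2, 33.8 and 37.7 TPM on day 8 and 31.4, 31.5 and 33.02 TPM on day 2, without overlap (0.19 ± 0.09, adjusted p = 0.698 in limma). *Ercc3* was at 46.1, 43.7 and 47.2 TPM on day 8 and 37.6, 42.3 and 42.5 TPM on day 2 (0.16 ± 0.09, adjusted p = 0.736). The difference between the day 8 and day 2 responses called 0 of 42 members for CVAD, with 0.0826% of all genes, 0 for cyclophosphamide, with 0%, and 0 for dexamethasone, with 0%. Besides *Lig1*, the smallest p-values there were of *Ogg1* for CVAD (−0.50 ± 0.22, adjusted p = 0.496), *Mdc1* for cyclophosphamide (−0.34 ± 0.16, adjusted p = 0.498) and *Ercc3* for dexamethasone (−0.27 ± 0.12, adjusted p = 0.932).

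Genes of the same pathways outside the set gave the same count. Of 51 other DNA repair genes 49 were tested, and 0 were called in each direction in all 18 comparisons. Against saline on day 2, CVAD gave 41 positive and 8 negative estimates, with a median of 0.11, against 0.07 over all genes. With the same saline libraries, dexamethasone gave 39 and 10 (0.04, against 0.06) and cyclophosphamide 34 and 15 (0.07, against 0.06). *Uimc1*, which encodes RAP80 of the BRCA1 complex, was at 29.8, 28.7 and 28.9 TPM in CVAD on day 2. Saline of that day had 20.1, 24.4 and 24.03 TPM, without overlap (0.34 ± 0.12, adjusted p = 0.373 in limma). On day 8 in CVAD, *Rpa3*, a subunit gene of the single-strand binding protein RPA, was at 14.9, 13.7 and 15.9 TPM, against 26.5, 19.2 and 19.3 TPM in saline. These did not overlap (−0.51 ± 0.17, adjusted p = 0.537). *Mre11a*, the nuclease of the break sensor complex, was at 19.1, 22.3 and 21.3 TPM in CVAD and 16.1, 14.6 and 18.9 TPM in saline there, again without overlap (0.33 ± 0.15, adjusted p = 0.792). In that comparison 26 of the 49 estimates were positive and 23 negative (median 0.02, against 0.02 over all genes). On day 8 the counts were 11 and 38 in cyclophosphamide (−0.06, against −0.04) and 29 and 20 in vincristine (0.04, against 0.02). They were 18 and 31 in doxorubicin (−0.02, against −0.02) and 25 and 24 in dexamethasone (0.003, against −0.02). *Polm*, an end joining polymerase, was at 14.9, 16.6 and 14.6 TPM in cyclophosphamide on day 8 and 24.1, 17.2 and 23.7 TPM in saline (−0.46 ± 0.15, adjusted p = 0.649).

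Of 19 target genes of p53, the transcription factor activated by DNA damage, 17 were tested and 0 were called in any of the 18 comparisons. In CVAD on day 2, 15 had positive and 2 negative estimates (median 0.15, against 0.07 over all genes). On that day it was 6 and 11 in cyclophosphamide (−0.06, against 0.06) and 9 and 8 in dexamethasone (0.005, against 0.06). *Plk2* had the smallest p of the targets in each of these 3 groups. Its estimates were 0.21 ± 0.10 in CVAD, 0.22 ± 0.10 in cyclophosphamide and 0.22 ± 0.10 in dexamethasone (adjusted p = 0.610, 0.662 and 0.922 in limma). On day 8, 7 were positive and 10 negative in CVAD (median −0.03, against 0.02 over all genes), 1 and 16 in cyclophosphamide (−0.20, against −0.04), 5 and 12 in vincristine (−0.09, against 0.02), 4 and 13 in doxorubicin (−0.13, against −0.02), and 3 and 14 in dexamethasone (−0.15, against −0.02). All 5 share the saline libraries, in which the 19 genes summed to 640.5, 600.1 and 835.5 TPM. *Btg2*, an anti-proliferative gene, was at 12.5, 19.02 and 14.98 TPM in cyclophosphamide on day 8 and at 21.5, 22.02 and 23.4 TPM in saline, without overlap (−0.52 ± 0.19, adjusted p = 0.707 in limma). On day 8 *Perp*, a membrane protein gene, was at 27.1, 28.4 and 25.4 TPM in CVAD, against 18.6, 19.3 and 21.03 TPM in saline, also without overlap (0.44 ± 0.18, adjusted p = 0.747). The *Btg2* estimate was negative in that comparison, with 20.5, 17.1 and 12.3 TPM in CVAD, below the same saline libraries (−0.43 ± 0.19, adjusted p = 0.779).

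Some repair genes serve replication as well, so each member was set against the mean of the 12 dividing-cell genes. Group means were removed from both, and libraries were permuted within groups (100000 resamples, adjusted over 42 members). Over the 30 libraries 36 members had a positive and 6 a negative Pearson correlation, with a median r of 0.24. The libraries share the TPM scaling, so the correlations are not independent of each other. With r, 0 members passed an adjusted p of 0.05 and 5 passed an unadjusted one. *Neil1*, the glycosylase of oxidised bases, came nearest (r = 0.60, permutation p = 0.00125, adjusted p = 0.0525; Spearman's rho = 0.62, permutation p = 0.00063, adjusted p = 0.0265). Without the 2 libraries farthest from the median of the dividing-cell mean, its r was 0.71.

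The other 4 were weaker. *Lig1* had r = 0.51 (permutation p = 0.0131, adjusted p = 0.174; rho = 0.54, permutation p = 0.00833, adjusted p = 0.108), and 0.54 without those libraries. *Mdc1* had r = 0.53 (permutation p = 0.0160, adjusted p = 0.174; rho = 0.57, adjusted p = 0.108), and 0.46 without them. *Ung* had r = 0.40 (permutation p = 0.0166, adjusted p = 0.174; rho = 0.46, adjusted p = 0.108), and 0.36 without them. *Xrcc6* had r = −0.40 (permutation p = 0.0432, adjusted p = 0.328; rho = −0.41, adjusted p = 0.179), with −0.40 without them. With median-ratio scaling r was 0.50 for *Neil1*, 0.32 for *Lig1*, 0.33 for *Mdc1*, 0.34 for *Ung* and −0.62 for *Xrcc6* (adjusted p = 0.0685).

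**Figure D4:**
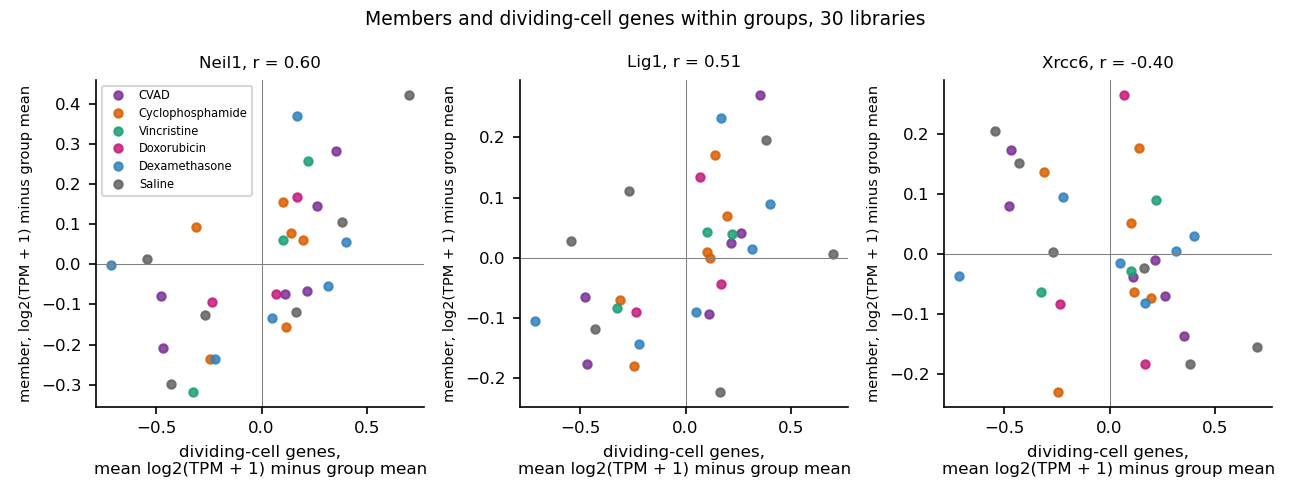
Log2(TPM + 1) of *Neil1*, *Lig1* and *Xrcc6* minus the group mean against the same quantity for the mean of the 12 dividing-cell genes. Each point is 1 of 30 libraries, coloured by drug, and r is 0.60, 0.51 and −0.40.

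The promoters of these 5 genes are shown because E2F factors drive many replication genes, and the letters they are known to bind can be looked for in them. The sequences are from RefSeq (GRCm38.p6, not the build of the expression table), from 250 bases before to 50 bases after the start site. Such windows were at hand for 36 of the 44 genes. The letters TTTGGCGC, TTTCGCGC and TTTCCCGC were searched on both strands, and matches are in capitals. The windows are chr7:13276925-13277224 (plus strand) for *Lig1*, chr9:57148256-57148555 (minus) for *Neil1*, chr17:35841248-35841547 (plus) for *Mdc1*, chr5:114130185-114130484 (plus) for *Ung* and chr15:82016119-82016418 (plus) for *Xrcc6*.
Lig1: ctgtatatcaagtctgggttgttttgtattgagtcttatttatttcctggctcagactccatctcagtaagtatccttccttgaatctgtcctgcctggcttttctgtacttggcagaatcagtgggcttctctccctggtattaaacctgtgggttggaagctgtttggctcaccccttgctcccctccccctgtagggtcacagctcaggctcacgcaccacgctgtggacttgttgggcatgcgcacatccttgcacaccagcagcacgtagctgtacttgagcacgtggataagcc
Neil1: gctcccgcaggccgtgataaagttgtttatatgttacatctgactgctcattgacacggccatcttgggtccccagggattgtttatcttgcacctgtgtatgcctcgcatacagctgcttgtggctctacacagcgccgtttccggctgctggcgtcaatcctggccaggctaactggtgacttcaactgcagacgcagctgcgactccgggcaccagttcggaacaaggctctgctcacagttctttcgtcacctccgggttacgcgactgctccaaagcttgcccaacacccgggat
Mdc1: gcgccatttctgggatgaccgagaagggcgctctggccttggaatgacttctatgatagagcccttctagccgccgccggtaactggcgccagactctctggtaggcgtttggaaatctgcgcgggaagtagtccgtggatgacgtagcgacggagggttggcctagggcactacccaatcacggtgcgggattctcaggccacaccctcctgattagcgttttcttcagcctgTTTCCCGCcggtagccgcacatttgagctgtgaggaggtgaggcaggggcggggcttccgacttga
Ung: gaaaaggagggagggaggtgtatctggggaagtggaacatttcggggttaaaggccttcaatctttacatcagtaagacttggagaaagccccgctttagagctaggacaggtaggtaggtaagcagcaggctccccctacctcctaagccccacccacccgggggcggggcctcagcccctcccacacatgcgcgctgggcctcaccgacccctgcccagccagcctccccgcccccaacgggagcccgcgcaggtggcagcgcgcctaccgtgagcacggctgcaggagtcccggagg
Xrcc6: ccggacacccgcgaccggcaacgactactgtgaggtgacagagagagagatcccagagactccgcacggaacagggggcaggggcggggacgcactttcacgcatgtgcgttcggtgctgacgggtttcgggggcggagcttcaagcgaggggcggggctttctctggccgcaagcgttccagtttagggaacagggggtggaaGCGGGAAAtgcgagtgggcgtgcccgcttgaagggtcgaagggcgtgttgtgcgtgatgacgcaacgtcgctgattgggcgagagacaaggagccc
A match stood in *Mdc1*, its first base 16 bases before the start site, and in *Xrcc6*, read on the other strand, 46 bases before it. None of the 3 words stood in the windows of *Lig1*, *Neil1* or *Ung*. Among the 36 windows 4 held a match, those of *Chek2*, *Mdc1*, *Msh6* and *Xrcc6* (11.1%), against 517 of 27025 windows of all genes (1.91%). The GC box GGGCGG stood in 26 of 36 windows (72.2%), against 35.9% of all, and CCAAT in 19 of 36 (52.8%), against 38.0%, both strands read. TATAAA stood in 2 of 36 (5.56%), against 14.2%. The 27025 windows were not limited to the genes tested here, so these shares are not set against expressed genes alone. A match is a description of letters and says nothing of binding.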

How the data were processed

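Ribosomal RNA was depleted from 60 to 80 ng of total RNA with Ribo-Zero Plus and stranded libraries were made, per the labels' protocols. StringTie 2.2.1, STAR 2.7.10b and FastQC 0.12.1 appear in the submitters' processing notes. GRCm39 and mm10 are both named there, with no role for either. The authors deposited 1 table of TPM per gene, scaled within each library, and its columns sum to 999910 to 999941. Reads per library are not given in the sources used here, so the depth is unknown and no counting error was computed. Genomic coordinates of genes are as in the table, and 0 of 44 starts equal those of RefSeq GRCm38.p6.

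Groups came from the labels. The 25434 genes that reached 1 TPM in 3 or more libraries were tested on log2(TPM + 1), a scale that understates changes of low genes, with a mean per group over 30 libraries in limma 3.58.1 (R 4.3.3, moderated variances with a trend, 2-sided p, Benjamini-Hochberg adjustment within each of 18 comparisons and 2 F tests, threshold 0.05). Each drug group was set against saline (8 comparisons) and CVAD against single drugs (6), responses were compared between days (3), and saline was compared between days (1). The members and lists were chosen with earlier results of these data known. Members were named at an unadjusted p under 0.05 against saline, and otherwise as the 2 of smallest p. *Top2b* was always named in doxorubicin and CVAD on day 8, and *Mgmt* and *Alkbh2* in cyclophosphamide and CVAD. Of the other lists the 2 of smallest p qualified, and the text gives some of these. Alternatives were median-ratio scaling, no filter, a pseudocount of 0.1, library weights, protein-coding genes alone, a model per day and the omission of each library. The methods were tested on simulated data. Python used numpy 2.4.6, pandas 2.3.3, scipy 1.17.1 and matplotlib 3.10.9.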

Additional observations from a re-analysis of the deposited data

How the results depend on the processing

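The count of members called was 0 under each of the 272 alternatives of the 20 tests, the omission of each library included (lowest 0, highest 0). The counts of all genes called moved more, with no member among them. With library weights they were 98 in CVAD on day 2 (11 as reported), 50 in cyclophosphamide on day 2 (3), 32 in the day 2 F test (3), 86 in the CVAD response difference (21) and 42 in that of cyclophosphamide (0). Without dexamethasone day 2 replicate 3, 76 were called in dexamethasone on day 2 (1) and 79 in the day 2 F test. The smallest adjusted p of a named member under any alternative was 0.128, for *Lig1* in CVAD on day 2 with library weights. Of 496 alternative values of the 39 named fold changes, 478 kept their direction and 18 reversed, none called. Leaving out 1 library moved 18 of the 39 by over 1.5 times or past 0. The members at an unadjusted p under 0.05 in CVAD on day 2 numbered 3 as reported. They numbered 1 without CVAD day 2 replicate 2, and 6 with library weights, without CVAD day 2 replicate 3 or without saline day 2 replicate 3. With median-ratio scaling *Alkbh2* and *Mgmt* in cyclophosphamide on day 2 became −0.029 and −0.046, and with library weights *Mgmt* became −0.021. When 1 library was left out, *Mgmt* ran from −0.019 to 0.14 in CVAD on day 2, from −0.055 to 0.080 in cyclophosphamide on day 2 and from −0.26 to 0.11 in CVAD on day 8. *Alkbh2* ran from −0.058 to 0.16 in cyclophosphamide on day 2 and from −0.073 to 0.33 in CVAD on day 8. *Top2b* ran from −0.086 to 0.044 in CVAD and from −0.11 to 0.022 in doxorubicin on day 8. With a pseudocount of 0.1 the count of members related to the dividing-cell genes was 1 in place of 0, *Neil1* (r = 0.61, adjusted p = 0.0458). Without removal of the group means its r was 0.40. The cause was not tested. No paired analysis was possible because the labels give no replicate numbers shared across groups. The depth is unknown. The low gene *Alkbh2* had the widest interval (SE 0.28), but width did not follow level throughout. *Mgmt*, the lowest gene, had an SE of 0.20, against 0.22 for *Xpa*.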
